A study of Populus tremula x Populus alba with 3 samples.

Results

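The small subunit of the ribosome (40S) binds messenger RNA and reads its codons, and in the cytosol of plant cells it is built from ribosomal RNA and a set of proteins that are each encoded by several nuclear gene copies. Transcripts of these genes are known to be abundant where cells grow and divide, as in a shoot apex, and are known to vary together. This account covers 43 poplar genes, out of 41335 in the deposited count table, matched by words for small-subunit ribosomal proteins in the authors' deposited table. They are the genes of that table whose Arabidopsis description holds the word ribosomal together with 40S or a protein number beginning with S, with no large-subunit number beginning with L and no match to a chloroplast or mitochondrial genome locus. Letter case was ignored, and with the word in lower case only 10 genes would be taken. The 43 genes were selected on the measured difference between the RNAi lines and wild type, because the authors' deposited table lists only the 2151 genes that passed its false discovery rate threshold on these same libraries. Every value of RNAi against wild type given here for these genes is therefore a description and carries no test.

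The RNA came from apical buds of INRA clone 717-1B4, a hybrid poplar (Populus tremula x Populus alba) much used for transformation. All plants spent 4 weeks in long days (16 h light, 21 °C), 12 weeks in short days (8 h light, 19 °C) in which apical buds formed, and 4 weeks at 4 °C, and were then returned to long days, where buds were taken before visible bud break. The wild type group is 1 library, and the RNAi group is 2 libraries, 1 from each of the lines KD2 and KD5, which carry an RNA interference construct against PtaDML10, a gene named after DEMETER-like DNA demethylases. The labels give 15 buds from 15 plants for each of wild type, KD2 and KD5, and do not say whether the buds were pooled or which promoter drives the construct. Wild type has no replicate, and KD2 and KD5 are different lines, so the spread between them covers line as well as sampling.

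The libraries held between 4509887 and 6829583 counts, and wild type was the deepest. Values below are CPM, meaning counts scaled by library size and a TMM factor. The target locus (Potri.010G234400, an identifier taken from published naming and not from the files) stood at 9.59 CPM in wild type, against 13.2 CPM for KD2 and 17.01 CPM for KD5, which is not the direction of a knockdown, and the difference was not called (log2 fold change 0.66, SE 0.31). KD2 and KD5 are therefore names of labelled libraries here, and each direction given is that of the libraries so labelled. Names exist for the listed genes alone, so tissue markers could be read only there. Shoot apex and bud markers were present, with 4 listed: 2 SHOOT MERISTEMLESS matches, a CLV1 match and the dormancy-associated DRM1. They summed to 3706 CPM in wild type, against 1609 CPM for KD2 and 1660 CPM for KD5. Most of each sum was DRM1 alone, at 3418 CPM in wild type, 1474 CPM for KD2 and 1478 CPM for KD5. The 4 bud markers, the 16 listed green leaf markers (chlorophyll-binding and Rubisco small-subunit genes), the 5 listed epidermis markers and the single xylem marker CESA7 were all called lower. Of phloem markers, 0 were listed. Listing on the same contrast fixed that they would pass, and 64.5% of all genes in the authors' deposited table are lower there. The leaf markers summed to 8888 CPM in wild type, against 4541 CPM for KD2 and 4579 CPM for KD5, and the epidermis markers to 2550 CPM, 1439 CPM and 1252 CPM. Their part in the ribosomal values was not tested.

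By description and Arabidopsis locus, 35 of the 43 genes encode proteins of the cytosolic 40S subunit, 4 encode plastid ribosomal proteins and 4 encode translation elongation factors whose descriptions share a family name with a ribosomal protein. The label therefore holds for most of the genes and not for the elongation factors. The 35 cytosolic genes cover 16 proteins. For 11 of them the description gives a bacterial family or fold name, and the protein was named from the Arabidopsis locus: the S11 family genes match S14, the S13/S18 genes S18, the S19 family genes S15, the S4 genes S9, and the S5 domain 2-like genes S16. The organelle-locus clause left out 2 listed genes, a chloroplast S7 match (Potri.013G138900) and a chloroplast S19 match (Potri.011G074200), listed at log2 fold changes of 2.86 and -0.65 in the authors' deposited table. The weakest of the 43 by the authors' deposited table are Potri.012G096400 and Potri.007G065700, both elongation factor matches, with false discovery rates of 0.0366 and 0.0355. Genes just beyond that threshold carry no name and are not analysed here.

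All 43 genes had lower values in both RNAi libraries than in wild type, so the groups did not overlap at any of them. Together they took 1.59% of all counts in wild type (exact binomial 95% interval 1.58 to 1.60%), 0.902% in KD2 (0.894 to 0.911%) and 1.03% in KD5 (1.02 to 1.04%). These intervals cover counting error only. In such bulk samples, fewer cells of a type and less RNA per cell cannot be told apart. The fold changes below compare both RNAi libraries with wild type in an edgeR quasi-likelihood fit over all genes, with the standard error (SE) of that fit. The median log2 fold change was -0.85 over the 43 genes and 0.02 over all 23089 genes tested. With a Benjamini-Hochberg adjusted p below 0.05 as the threshold, 42 of the 43 genes were called lower and 0 higher, where 8.05% of all genes tested were called lower and 5% higher. Both RNAi libraries lay below wild type at 38.4% of all genes tested. With libraries scaled by size only, 39 of the 43 were called lower beside 4.23% of all genes tested, and 75.5% of all calls were higher, against 38.3% with TMM. Nothing is read from these counts, because the same contrast chose the genes.

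**Figure D1:**
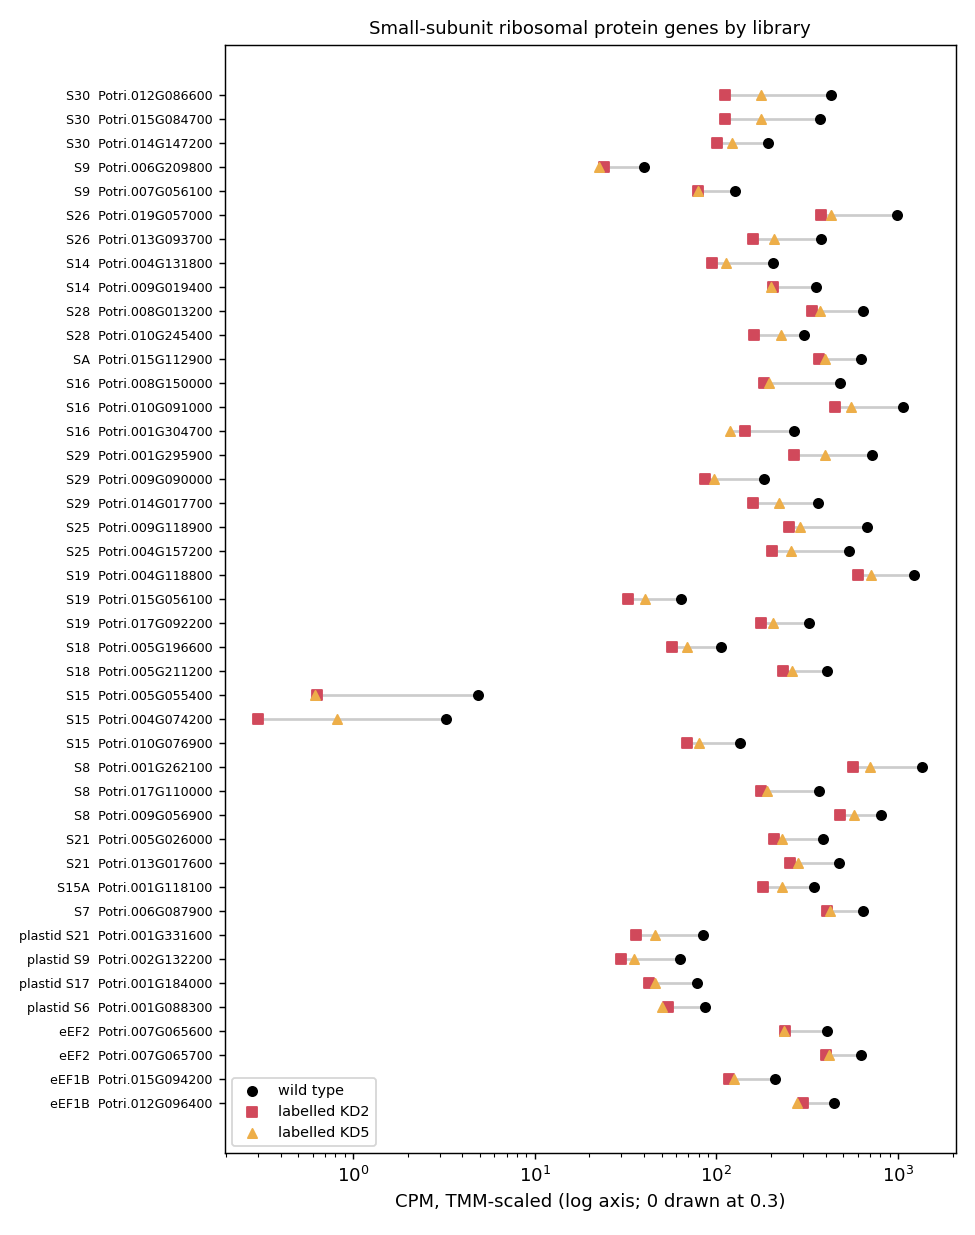
Expression of the 43 genes in CPM (log axis), 1 row per gene with the protein it matches, and 1 point per library. The wild type point lies to the right of both RNAi points in every row, and the 2 rows under 5 CPM are the S15 matches with few counts.

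High counts and lower values went together in these libraries. Among genes outside the 43 with a mean of 256 CPM and over, 49.1% were called lower and the median log2 fold change was -0.41. With the 91 listed genes matched by word as large-subunit left out as well, these values were 44.4% and -0.38. Between 64 and 256 CPM, 21.3% were called lower with a median of -0.15, and between 16 and 64 CPM 7.48% with a median of 0.03. Of the 43 genes, 18 lay in the first range with a median of -0.84, 17 in the second with a median of -0.86, and 6 in the third with a median of -0.80. The remaining 2, under 16 CPM, had a median of -2.91. In every range the genes were selected on this contrast, so these medians are not compared. When the dependence on count level was removed by loess normalization, the median of the 43 genes was -0.64 and all 43 stayed below 0, but 22 were called lower, where 3.4% of all genes tested were.

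**Figure D2:**
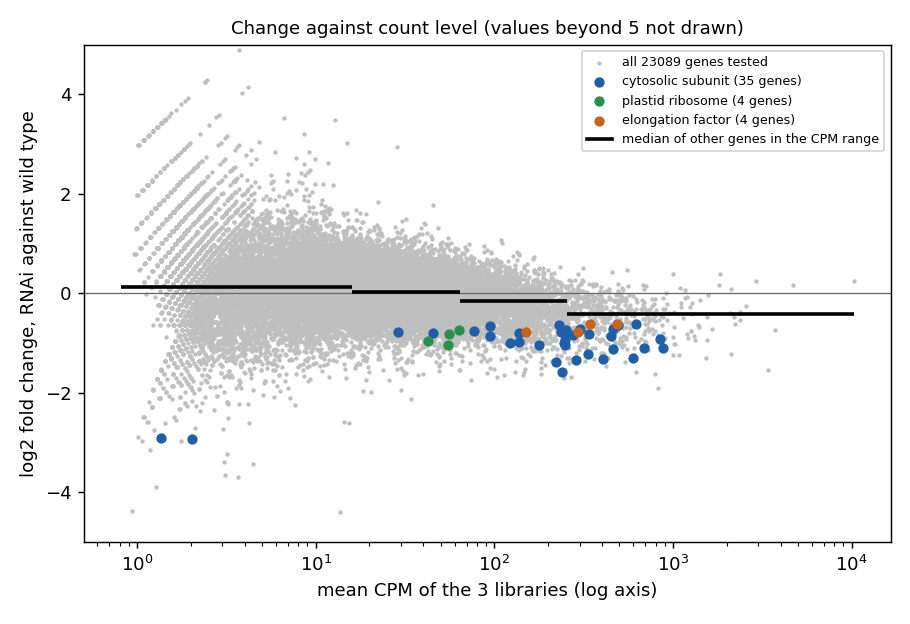
Log2 fold change of RNAi against wild type for each gene tested, plotted against its mean CPM (log axis), with the 43 genes coloured by class and black lines at the median of the other genes in 4 ranges of CPM. The coloured points lie below the black line of their range, which itself descends from 0.14 under 16 CPM to -0.41 at 256 CPM and over. The 43 genes were chosen on this same contrast, so nothing is read from their place against the lines.

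Apart from 2 S15 matches with under 50 counts in every library, the log2 fold changes of the remaining 41 genes ran from -1.58 to -0.62, with quartiles of -1.04 and -0.75 and SEs between 0.14 and 0.22. Wild type counts of these genes lay between 246 and 8385, so counting error was small for most of them. No source used here gives gene lengths, so CPM values compare libraries for a gene and are not compared between genes. Reads of near-identical copies may be split between them by the counting, so values of single copies are less certain than sums over a protein.

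S30 and S9 lie near the channel through which messenger RNA enters the 40S subunit. Of all 22 proteins and factors matched, S30 had the lowest summed ratio to wild type, at 0.402 over its 3 genes. Potri.012G086600 stood at 431 CPM in wild type, against 112 CPM for KD2 and 177 CPM for KD5 (log2 fold change -1.58, SE 0.16), the lowest among genes with at least 50 counts. Potri.015G084700 stood at 375 CPM in wild type, against 112 CPM for KD2 and 177 CPM for KD5 (log2 fold change -1.37, SE 0.16). The third copy, Potri.014G147200, stood at 192 CPM in wild type, against 100.4 CPM for KD2 and 122 CPM for KD5, a log2 fold change of -0.79. By DESeq2 the first pair was not called, with adjusted p-values of 0.0635 and 0.143. The first pair was lower by a wider margin than the third copy, and in all 3 genes KD2 was the lowest library. The 2 S9 genes were among the least lowered, at a summed ratio of 0.620. Potri.007G056100 stood at 126 CPM in wild type, against 79.8 CPM for KD2 and 79.5 CPM for KD5, and Potri.006G209800 had 246 counts in wild type against 115 and 110.

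S26, S14, S28 and SA lie at the platform and the side where messenger RNA leaves the subunit. The S26 copies had a summed ratio of 0.429. Potri.019G057000 stood at 994 CPM in wild type, against 379 CPM for KD2 and 427 CPM for KD5 (log2 fold change -1.30, SE 0.15), and its other listed copy, Potri.013G093700, was at a log2 fold change of -1.04. The 2 S14 genes, Potri.004G131800 and Potri.009G019400, stood at -0.98 and -0.81 on that scale. The S28 copies differed between the RNAi libraries: Potri.010G245400 stood at 304 CPM in wild type, against 162 CPM for KD2 and 228 CPM for KD5, and Potri.008G013200 at 639, 335 and 372 CPM. The SA gene Potri.015G112900, whose protein family is also known as the laminin receptor precursor in animals, stood at 627 CPM in wild type, against 366 CPM for KD2 and 396 CPM for KD5.

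The largest set of genes encodes proteins of the head of the subunit. S16, whose tail is known to reach the transfer RNA in the peptidyl site, had 3 genes with a summed ratio of 0.453. Potri.008G150000 stood at 479 CPM in wild type, against 182 CPM for KD2 and 196 CPM for KD5 (log2 fold change -1.34, SE 0.16). Potri.010G091000 stood at 1072 CPM in wild type, against 452 CPM for KD2 and 553 CPM for KD5. Potri.001G304700 stood at 268 CPM in wild type, against 144 CPM for KD2 and 119 CPM for KD5, and here, unlike in the other copies, KD5 was the lowest library.

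S25, known from yeast and human cells for its part in internal initiation on viral RNAs, had 2 genes at nearly equal changes. Potri.009G118900 stood at 675 CPM in wild type, against 253 CPM for KD2 and 290 CPM for KD5 (log2 fold change -1.31, SE 0.15), and Potri.004G157200 was at a log2 fold change of -1.22. Their summed ratio of 0.415 was the second lowest after S30.

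S29, a small zinc-binding protein, had 3 genes with a summed ratio of 0.486. Potri.001G295900 stood at 719 CPM in wild type, against 268 CPM for KD2 and 398 CPM for KD5, Potri.014G017700 at 364, 159 and 221 CPM, and Potri.009G090000 at 183, 86.3 and 96.7 CPM. The RNAi libraries stood further apart in the first pair than in the last gene. S19, which is needed in human cells to mature the subunit and is mutated in Diamond-Blackfan anaemia, had 3 genes within 0.135 of each other on the log2 scale. Potri.004G118800 stood at 1234 CPM in wild type, against 605 CPM for KD2 and 711 CPM for KD5, Potri.017G092200 at 326, 176 and 206 CPM, and Potri.015G056100 at 63.6, 32.8 and 40.6 CPM. The 2 S18 genes, Potri.005G211200 and Potri.005G196600, stood at log2 fold changes of -0.72 and -0.75.

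S15, which lies close to the decoding site, held the lowest fitted values and the fewest counts. Potri.010G076900 stood at 136 CPM in wild type, against 69.3 CPM for KD2 and 80.5 CPM for KD5, a log2 fold change of -0.86. Potri.005G055400 had 30 counts in wild type against 3 for KD2 and 3 for KD5, a ratio to wild type of 0.128 with an exact 95% counting interval from 0.043 to 0.312. Potri.004G074200 had 20 counts in wild type against 0 for KD2 and 4 for KD5, a ratio of 0.128 with an interval from 0.032 to 0.381, and is the gene that was not called. Both passed the filter on low counts through wild type alone, so a difference in this direction was built into their being tested. KD2 and KD5 stood at or near the floor of 3 counts, which is 0.630 CPM in KD2 and 0.615 CPM in KD5.

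S8, S21, S15A and S7 belong to the body of the subunit. The 3 S8 genes differed most among copies with ample counts after S30. Potri.001G262100 stood at 1363 CPM in wild type, against 568 CPM for KD2 and 700.1 CPM for KD5 (log2 fold change -1.10, SE 0.14), and Potri.017G110000 at 367, 176 and 190.0 CPM. Potri.009G056900 stood at 809 CPM in wild type, against 478 CPM for KD2 and 574 CPM for KD5, and its log2 fold change of -0.62 was the nearest to 0 of all 43 genes. The 2 S21 genes, Potri.005G026000 and Potri.013G017600, had log2 fold changes of -0.83 and -0.82. The single S15A gene, Potri.001G118100, stood at a log2 fold change of -0.74. The single S7 gene, Potri.006G087900, stood at 644 CPM in wild type, against 408 CPM for KD2 and 423 CPM for KD5, and had the highest summed ratio to wild type of all proteins, at 0.646.

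The genes outside the cytosolic subunit were lower as well. The plastid ribosome translates the messages of the chloroplast, and its 4 nuclear genes had a median log2 fold change of -0.89, against -0.91 over the 35 cytosolic genes. The GHS1 match for plastid S21, Potri.001G331600, stood at 84.2 CPM in wild type, against 36.1 CPM for KD2 and 45.9 CPM for KD5. The plastid S9 match, Potri.002G132200, stood at -0.96 on the log2 fold change scale, and the plastid S17 match (PRPS17), Potri.001G184000, at -0.82. The plastid S6 match, Potri.001G088300, stood at 87.1 CPM in wild type, against 54.2 CPM for KD2 and 50.01 CPM for KD5, with KD5 the lowest library.

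The elongation factors drive the movement of the ribosome along the message and the loading of transfer RNA. Their 4 genes had a median log2 fold change of -0.70. The LOS1 matches for elongation factor eEF2, Potri.007G065600 and Potri.007G065700, carry consecutive identifiers, and both match the same Arabidopsis locus. They stood at 407 CPM in wild type, against 239 CPM for KD2 and 235 CPM for KD5, and at 630.0, 400.0 and 419 CPM. The eEF1B matches stood at 210.1 CPM in wild type, against 118 CPM for KD2 and 126 CPM for KD5 (Potri.015G094200), and at 447, 300.4 and 280.2 CPM (Potri.012G096400). The difference between the classes was not tested, since the contrast that chose the genes is the one that would be compared.

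The direction of the difference between KD2 and KD5 was not used to choose the genes, but its size could enter the authors' false discovery rates, since wild type has no replicate. Each line has 1 library, so the difference has no replicate and no test. KD2 was the lower library at 35 of the 43 genes, beside 49.9% of all genes tested and 64.5% of other genes with 256 CPM and over, and the log2 ratio of KD2 to KD5 had a median of -0.20, against 0.00 over all genes tested. The exact 95% counting interval of the ratio lay below 0 for 25 of the 43 genes and above 0 for 1. Over all genes tested it lay below 0 for 10.8% and above 0 for 9.48%. The interval narrows with counts, and among genes outside the 43 with 256 CPM and over it lay below 0 for 45.2%, against 13 of the 18 members in that range. The median log2 ratio of KD2 to KD5 was -0.06 over those other genes and -0.15 over the 18 members. Between 64 and 256 CPM the interval lay below 0 for 18.9% of other genes and for 11 of the 17 members. The median ratios in that range were -0.01 and -0.26. Between 16 and 64 CPM it lay below 0 for 9.32% of other genes and for 1 of the 6 members, with median ratios of 0.02 and -0.17. The lean to KD2 was not particular to the 43 genes. Of the 91 listed large-subunit matches, 82 (90.1%) were lower in KD2, with a median log2 ratio of -0.22. Their interval lay below 0 for 61 (67%) and above 0 for 3. The other genes of the ranges include them. Without them, the share below 0 was 41.2% at 256 CPM and over and 18.6% between 64 and 256 CPM.

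**Figure D3:**
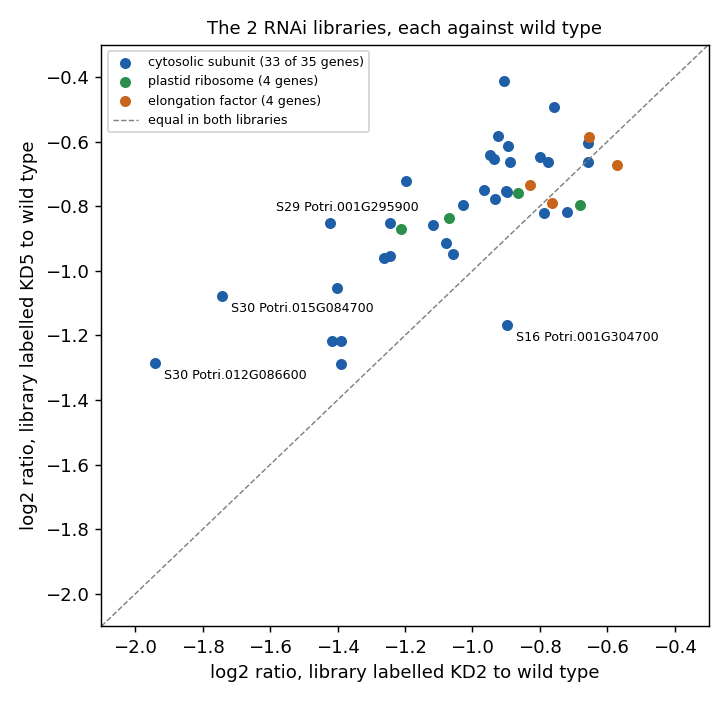
Log2 ratio of the library labelled KD5 to wild type against that of KD2 to wild type for the 41 genes with at least 50 counts in a library, coloured by class, with a dashed line where both are equal. Wild type enters both axes, so the points are not independent along the diagonal, and most lie above it, with the S30 pair farthest from it.

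The S30 genes Potri.015G084700 and Potri.012G086600 had the lowest ratios of KD2 to KD5 among genes with ample counts, at log2 ratios of -0.67 (interval -0.83 to -0.51) and -0.66 (-0.82 to -0.50). The S29 gene Potri.001G295900 followed at -0.57 (-0.67 to -0.47), and the S28 gene Potri.010G245400 at -0.50 (-0.63 to -0.36). The S16 gene Potri.001G304700 was the exception in the other direction, at 0.27 (0.11 to 0.43), while the remaining S16 genes stood at -0.10 and -0.29. Of the 4 elongation factor genes, 2 were lower in KD2 and 2 in KD5, and every interval spanned 0. For the plastid genes, 3 of 4 were lower in KD2, and the interval lay below 0 for 1 of them. Among the 35 cytosolic genes, 30 were lower in KD2, and for 24 the interval lay below 0. Of the 4 listed bud markers, the SHOOT MERISTEMLESS matches Potri.011G011100 and Potri.004G004700 stood lower in KD2, at log2 ratios of -0.41 (-0.62 to -0.20) and -0.54 (-0.82 to -0.27), and the intervals of the DRM1 and CLV1 matches spanned 0. The 16 green leaf markers had a median log2 ratio of -0.02 and the 5 epidermis markers of 0.32. The part of these marker differences in the ribosomal values was not tested.

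**Figure D4:**
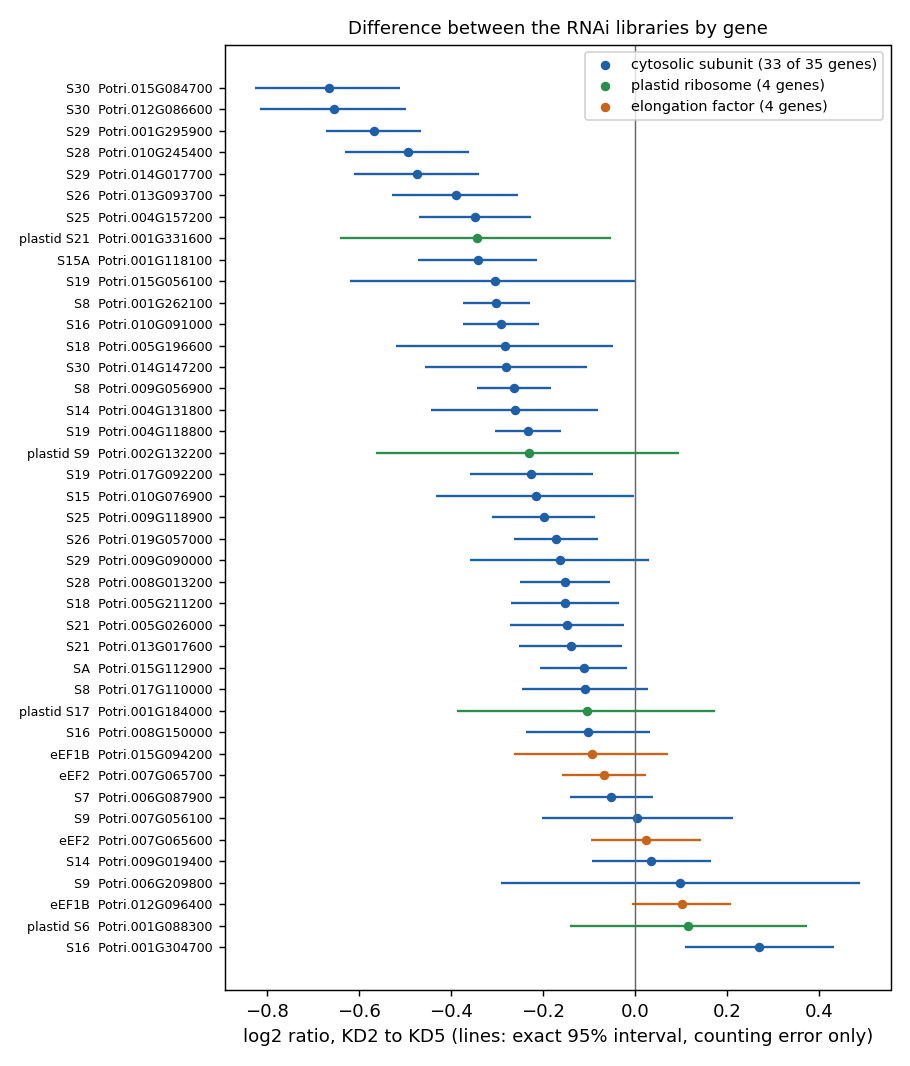
Log2 ratio of KD2 to KD5 for the 41 genes with at least 50 counts in a library, ordered by the ratio and coloured by class, with lines for the exact 95% interval of counting error. Most points of the upper, negative end are cytosolic genes, with the plastid S21 gene Potri.001G331600 among them. The only interval wholly above 0 belongs to the S16 gene Potri.001G304700.

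Listed copies of a protein were all chosen by the same threshold, so the gaps between them are given as a description. Over the 13 cytosolic proteins with at least 2 listed genes, the gap between the lowest and highest copy was under 0.35 on the log2 scale for 10. The exceptions were S8 with 0.484, S30 with 0.789 and S15 with 2.07, the last through its copies with few counts. Copies that stayed off the authors' deposited table carry no name, so these gaps cover listed copies only.

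Other genes of translation were read from the same table, which was selected on the same contrast. Of 91 listed genes matched by word as large-subunit ribosomal proteins, 85 were called lower and 6 higher. Among all 2151 genes of the authors' deposited table, 1387 were lower and 764 higher. The word match also took descriptions shared with S12e or with a Clp protease adaptor, so not every gene need be large-subunit. Potri.007G086800 and Potri.005G080700, both called higher, carry the L7Ae/L30e/S12e/Gadd45 family name, while others of that name were called lower. The rest called higher carry large-subunit names alone. They are the L11 family genes Potri.018G145200 (log2 fold change 3.02) and Potri.018G146600 (3.16), the L28e gene Potri.T165500 (1.61) and the L12 gene Potri.007G019100 (1.09). Wild type had 16 and 3 counts at the L11 genes. The median log2 fold change was -0.85 over the 91 genes, -0.85 over the 43 genes and -0.91 over the 35 cytosolic genes. The same threshold chose all of them, so these medians are not compared. The L39 match Potri.006G188500 had the smallest adjusted p, at 497 CPM in wild type, against 127 CPM for KD2 and 184 CPM for KD5. The 43 genes held 0 called higher, and this difference from the 91 genes was not tested. Outside the 43 genes, the elongation and release factor list held 8 genes, 7 called lower and 1 higher. Its word match also took 2 rubber elongation factor genes, both called lower, and a transcription elongation factor. The latter, Potri.019G003900, was the 1 called higher (log2 fold change 1.75). The elongation factor Tu family gene Potri.010G219500 stood at 566 CPM in wild type, against 257 CPM for KD2 and 277 CPM for KD5. Of 4 initiation factor genes 3 were called lower, led by the IF6 match Potri.010G229800 (log2 fold change -0.85), and 1 was called higher. SUI1 family genes went both ways: Potri.006G228100 was called higher at 0.83, and Potri.007G122600 was called lower at -0.76. The ribosome biogenesis list held 1 gene, Potri.001G353800, which was called higher at 0.94. Its description is a 16S rRNA processing protein of the RimM family, so it does not name the cytosolic subunit. The tRNA synthetase list likewise held 1 gene, Potri.017G033200, called higher at 0.83. No listed gene matched RACK1, S6 kinase or TOR.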

How the data were processed

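The deposited table of raw whole-number counts has 1 column per library, and per the submitters' processing notes FastQC, TopHat and edgeR were used. No source used here states versions, genome build, annotation, counter or strand setting. The authors' deposited table gives log2 fold changes, average log2 CPM, p-values and false discovery rates for 2151 genes, with Arabidopsis matches for 2010.

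Counts were fitted with edgeR 4.0.16 (R 4.3.3): filterByExpr with a minimum count of 10 (23089 genes kept, all 43 members among them), TMM factors of 0.904 (wild type), 1.06 (KD2) and 1.04 (KD5), and a two-sided quasi-likelihood test with Benjamini-Hochberg adjustment over all genes. It has 1 residual degree of freedom, and wild type is assumed to vary like the RNAi libraries. The common dispersion of 0.013 equals a coefficient of variation of 11.4%. Log2 ratios between single libraries used a prior count of 2. Counting intervals are exact at 95%, and floors are 3 counts per library.

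Members, lists and tests were chosen with earlier results of these data known. Named were the extremes of change, CPM and KD2 to KD5 ratio, the members nearest the threshold, every member of proteins with 3 or more genes, and the list gene with the smallest adjusted p. Remaining members were named to account for all. Alternatives were 4 scalings, 2 filters, 3 tests including DESeq2 1.42.0 and limma 3.58.1, an adjusted p of 0.01, left-out RNAi libraries, prior counts and narrower member sets. A list named from a reference could not be made, since none was used here, and sequences and coordinates are for that reason not shown.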

Additional observations from a re-analysis of the deposited data

How the results depend on the processing

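The 43 genes stayed below 0 under every scaling, filter and test that kept them. A filter of 1 CPM in 2 libraries left out the 2 S15 matches with few counts. The same contrast chose the genes, so these signs and the calls below are a description and carry no test. Called lower were 42 genes, beside 8.05% of all genes tested. Library size only called 39 members lower (4.23% of all genes), upper quartile scaling 42 (6.86%) and RLE scaling 42 (8.31%). The filter of 1 CPM in 2 libraries gave 41 of 41 (7.72%) and the likelihood ratio test 43 (7.42%). Limma voom gave 42 (7.61%), and an adjusted p of 0.01 gave 41 (5.29%). DESeq2 called 30 lower, beside 2.13% of all genes. The calls it lost include the S30 genes Potri.012G086600 and Potri.015G084700, the S29 gene Potri.001G295900 and both cytosolic S9 genes. It gave no adjusted p for the 2 S15 matches with few counts. Loess normalization called 22 members lower, beside 3.4% of all genes tested, and 1264 genes in either direction, against 3014. With no filter the edgeR quasi-likelihood test called 0 members and 0 genes, with 43 members and 5051 genes at an unadjusted p under 0.05. DESeq2 called 538 genes in all and an adjusted p of 0.01 left 1712; the causes were not tested.

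With library size only, the median log2 fold change of all genes moved from 0.02 to 0.24, and the median of the members was -0.63. With loess normalization it was -0.64, and without RNAi replicate 1 (KD2) or 2 (KD5), which leaves values with no test, it lay between -0.94 and -0.80. Without the 2 S15 matches with few counts, left out after seeing the data, 41 of 41 were called lower and the median was -0.83. Of the 35 cytosolic members 34 were called lower, with a median of -0.91. Both counts stand beside 8.05% of all genes tested. Library size only lost the calls of both S9 genes and Potri.012G096400, and called the target locus higher.

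The median log2 ratio of KD2 to KD5, -0.20, was -0.23 for members described as small-subunit proteins and -0.23 for cytosolic members. It was -0.18 with library size only, -0.22 with upper quartile scaling and -0.14 with loess normalization. No paired analysis was possible because wild type has 1 library. Depth limits the 2 S15 matches with few counts, and a single wild type library limits every comparison with it.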
